A study of Mus musculus with 6 samples.

Results

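The pyruvate dehydrogenase complex was described here through 10 genes: the subunit genes Pdha1, Pdhb, Dlat and Pdhx, the kinase genes Pdk1, Pdk2, Pdk3 and Pdk4, and the phosphatase genes Pdp1 and Pdp2. Members were found by gene symbol, and all 10 were among the 16763 genes of the deposited table. All 10 also passed the filter on low counts. RNA had been sequenced from tumors that 4T1 cells, a BALB/c line of mammary carcinoma, formed in BALB/c mice. The DMDD liposome group came from tumor-bearing mice given DMDD in liposomes, and the model group from mice with the same tumors that were not described as treated. Each group had 3 libraries. DMDD is named only by its abbreviation, and the sources used here do not give the dose, the duration, the age of the mice or any empty-liposome control. The mice are labelled male, although mammary tumors are usually modelled in females. Separate animals are not named for the libraries, so the spread between them may be technical. The tumors were sequenced whole, and a rise or fall in a transcript cannot be told apart from a larger or smaller share of the cells that make it.

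The complex links glycolysis to the citric acid cycle: in the mitochondrial matrix it turns pyruvate into acetyl-CoA, and so commits carbon to oxidation or to lipid synthesis. The kinases switch the complex off by phosphorylating serines of the E1 alpha subunit, and the phosphatases switch it back on. The kinase genes respond to different cues. Pdk1 is a target of the hypoxia factor HIF-1, while Pdk4 is known for its rise in fasting and fatty acid use, under PPAR, FOXO and glucocorticoid control, in muscle, heart and liver.

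Pdk4 stood apart from the other members. It measured 7.04 ± 4.08 CPM (counts relative to the library's total, scaled between libraries by TMM) in DMDD liposome tumors and 0.652 ± 0.189 CPM in model tumors (SD, n = 3 each). The other 9 members all lay within 0.5 of 0 on the log2 scale. The most abundant kinase genes, Pdk3 and Pdk1, had fitted log2 fold changes of -0.45 ± 0.18 and -0.35 ± 0.16 (SE), and the subunit genes lay between -0.21 and 0.20. Pdk4 prompted the choice of these genes: in the authors' deposited table it had the second smallest p of all genes, with an adjusted p of 5.71e-06. The values below were thus chosen from this same comparison and are given as a description, without a test in support.

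edgeR's quasi-likelihood test with Benjamini-Hochberg adjustment over all 12891 genes tested called 0 of the 10 members, with adjusted p from 0.603 to 0.957. It called 0% of all genes; at an unadjusted p under 0.05 it found 2 members, Pdk4 and Pdk3, and 7.65% of all genes. DESeq2's Wald test on the same counts called 1 member, Pdk4, and 0.408% of all genes with an adjusted p. The authors' deposited table also called Pdk4 as its 1 member, among 0.346% of its genes. Nothing is read from these counts, since that table's result led to the choice. The median log2 fold change of the 10 members was -0.07, against 0.01 over all genes tested, with 5 members above 0 and 5 below.

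**Figure D1:**
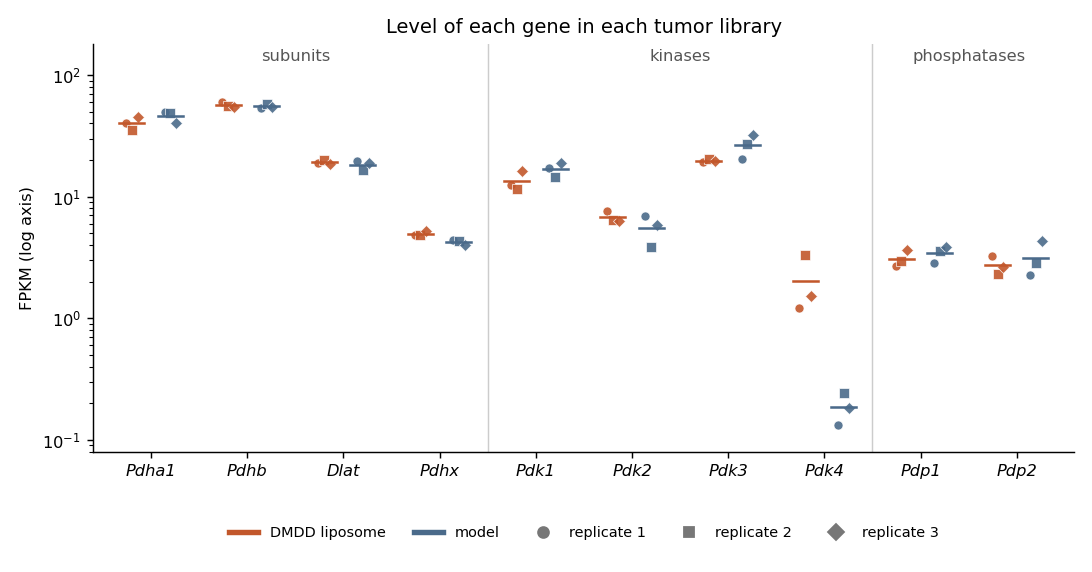
FPKM (reads scaled by gene length and library total, as deposited) on a log axis for each of the 10 genes, with 1 point per library, DMDD liposome left of model, and a line at each group mean. Pdk4 is the gene whose groups lie far apart, at 1.21 to 3.32 FPKM in DMDD liposome tumors and 0.132 to 0.241 FPKM in model tumors.

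The start regions of the kinase genes that the results turn on are shown because these genes are known to answer to different factors. They are RefSeq promoter windows of build GRCm38.p6, from 250 bases before to 50 after the annotated start, written 5′ to 3′ on the gene's strand. The deposited counts were made on another build, mm9. Of the 10 members, all but Pdp1 had an entry. Capitals mark ACGTG and GCGTG, the core letters of the hypoxia response element, on either strand, so that GCGTG on the other strand appears as CACGC.
Pdk4 (chr6:5496229-5496528, minus strand): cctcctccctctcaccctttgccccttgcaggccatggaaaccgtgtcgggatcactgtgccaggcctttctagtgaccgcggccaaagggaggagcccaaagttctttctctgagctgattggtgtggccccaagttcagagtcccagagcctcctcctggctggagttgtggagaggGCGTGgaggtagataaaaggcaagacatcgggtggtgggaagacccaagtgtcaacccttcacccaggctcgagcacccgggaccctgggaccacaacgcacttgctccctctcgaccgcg
Pdk1 (chr2:71872974-71873273, plus strand): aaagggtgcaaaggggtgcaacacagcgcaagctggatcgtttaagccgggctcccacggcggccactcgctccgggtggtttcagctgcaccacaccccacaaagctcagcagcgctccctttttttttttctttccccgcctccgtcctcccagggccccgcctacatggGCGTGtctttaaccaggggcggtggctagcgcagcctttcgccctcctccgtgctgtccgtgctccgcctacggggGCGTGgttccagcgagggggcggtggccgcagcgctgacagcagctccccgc
Pdk3 (chrX:93832101-93832400, minus strand): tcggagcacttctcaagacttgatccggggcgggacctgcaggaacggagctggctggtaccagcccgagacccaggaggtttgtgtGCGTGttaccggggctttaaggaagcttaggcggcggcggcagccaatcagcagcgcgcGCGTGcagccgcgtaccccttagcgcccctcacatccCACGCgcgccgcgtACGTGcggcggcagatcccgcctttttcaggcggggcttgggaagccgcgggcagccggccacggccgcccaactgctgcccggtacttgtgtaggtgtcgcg

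The window of Pdk3 held 1 ACGTG and 3 GCGTG, that of Pdk1 held 2 GCGTG and that of Pdk4 held 1. Such letters are common: ACGTG was found in 19.6% and GCGTG in 32.4% of the 32851 windows of this length in the RefSeq table. For Pdk1 the more upstream of its 2 entries was used. The FOXO letters GTAAACA and the PPAR-type repeat AGGTCANAGGTCA, searched on both strands, were in none of the 3 windows, and are in 3.65% and 0.0396% of all windows. No match says only that these letters are not within this window. The 3 windows also differed in CpG content: Pdk3 had 35 CpG dinucleotides, Pdk1 had 25 and Pdk4 had 12, against a median of 7 over all windows. Pdk4 had the fewest of the 9 members with an entry, whose other windows held 14 to 35.

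Pdk4 encodes the kinase isoform linked to fasting and fat oxidation. Its counts were 58, 155 and 78 in DMDD liposome replicates 1 to 3, against 6, 13 and 10 in model replicates 1 to 3. In CPM these were 4.11, 11.7 and 5.32 in DMDD liposome tumors and 0.460, 0.838 and 0.657 in model tumors. Every DMDD liposome library lay above every model library, and DMDD liposome replicate 2 was the highest by a wide margin. The fitted log2 fold change was 3.40 ± 0.51 (SE), or 10.6-fold. It was 2.82 ± 0.40 without DMDD liposome replicate 2, and 3.22 to 3.68 without any other single library. Model counts of 6 to 13 carry a large counting error, although they lay above 3 counts, which stood for 0.192 to 0.230 CPM in these libraries.

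Pdk3 encodes a kinase isoform that is little inhibited by pyruvate and was here the most abundant kinase transcript per unit of length in every library. It measured 19.1, 20.4 and 19.7 FPKM in DMDD liposome replicates 1 to 3, against 20.4, 27.0 and 32.3 FPKM in model replicates 1 to 3. The DMDD liposome libraries sat close together, while the model libraries spread upwards from about the same level. In FPKM the groups did not overlap, by a gap of less than the rounding above, but in TMM-scaled CPM model replicate 1 (43.2 CPM) fell just below DMDD liposome replicate 2 (43.7 CPM). The fitted log2 fold change of -0.45 ± 0.18 became -0.61 without model replicate 1 and -0.28 without model replicate 3. DESeq2 called Pdk3 lower in DMDD liposome tumors when model replicate 1 was left out (adjusted p = 0.00730), a fit chosen after seeing the data in which it called 867 genes. Its adjusted p in the other alternatives ran upwards from 0.0865, the value of edgeR without that library.

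Pdk1, the isoform induced in hypoxia, came next in level. It measured 12.4, 11.6 and 16.2 FPKM in DMDD liposome replicates 1 to 3, against 17.0, 14.5 and 18.8 FPKM in model replicates 1 to 3. DMDD liposome replicates 1 and 2 lay below all model libraries, while DMDD liposome replicate 3 lay among them. Pdk2, the most widely expressed isoform in the body, measured 7.57, 6.40 and 6.26 FPKM in DMDD liposome tumors, against 6.90, 3.88 and 5.87 FPKM in model tumors. Its groups overlapped, and the fitted log2 fold change of 0.26 ± 0.23 rested on model replicate 2, the lowest library: without it the value was 0.05.

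**Figure D2:**
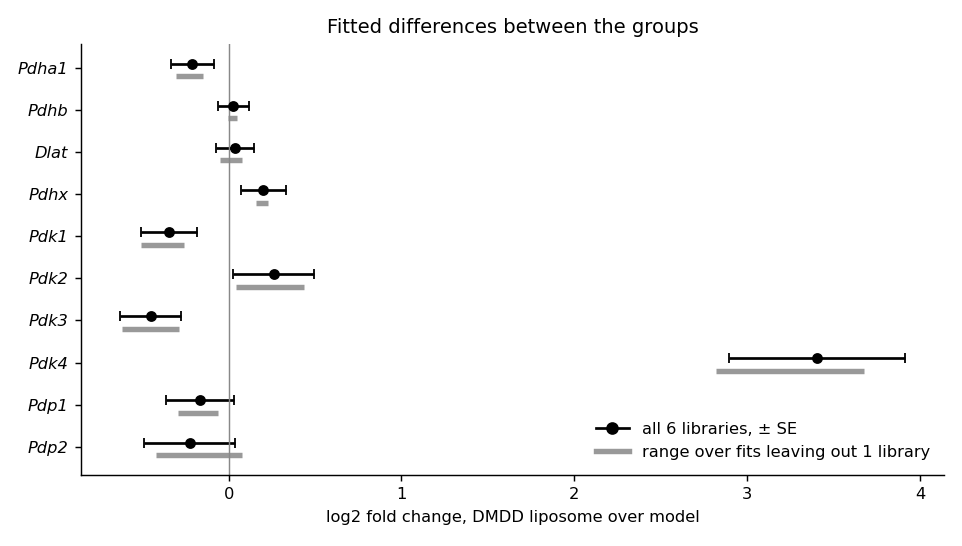
Fitted log2 fold change of each gene, DMDD liposome over model, with its standard error (black), and the range of the same value over the 6 fits that each left out 1 library (grey). Pdk4 stays between 2.82 and 3.68, while Pdp2, Pdhb and Dlat have ranges that cross 0.

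Per unit of length the kinase genes kept 1 order, Pdk3 above Pdk1 above Pdk2 above Pdk4, in all 6 libraries. Pdk3 and Pdk1 together made up 76.7% to 82.2% of the summed kinase FPKM in DMDD liposome tumors and 84.2% to 91.0% in model tumors. Pdk4 made up 3.004%, 7.95% and 3.51% in DMDD liposome replicates 1 to 3, against 0.297%, 0.528% and 0.322% in model replicates 1 to 3. Even in DMDD liposome replicate 2, where it was highest, Pdk4 was the least abundant kinase transcript, at 3.32 FPKM beside 6.40 FPKM for Pdk2. The mean share was 4.82% ± 2.72 in DMDD liposome tumors and 0.382% ± 0.127 in model tumors (SD, n = 3 each).

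The summed level of the kinase genes was not higher where Pdk4 was. It was 40.3, 41.7 and 43.8 FPKM in DMDD liposome replicates 1 to 3, against 44.5, 45.7 and 57.1 FPKM in model replicates 1 to 3. All DMDD liposome libraries were below all model libraries, by a narrow gap between DMDD liposome replicate 3 and model replicate 1, and model replicate 3 was far above the rest. The mean sum was 41.9 ± 1.76 FPKM in DMDD liposome tumors and 49.1 ± 6.99 FPKM in model tumors (SD, n = 3 each). These sums count transcripts and say nothing of kinase protein or activity.

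**Figure D3:**
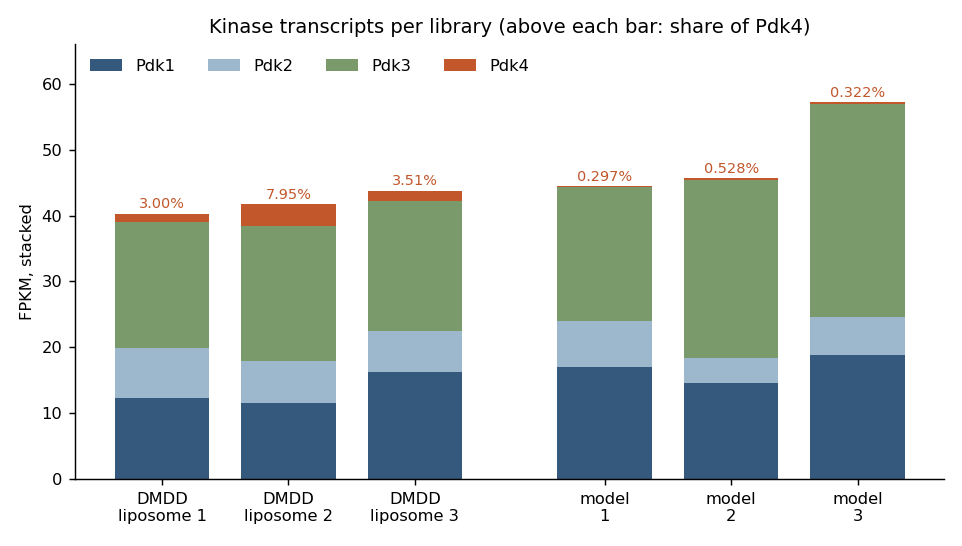
Stacked FPKM of the 4 kinase genes in each library, DMDD liposome left of model, with the share of Pdk4 in percent above each bar. Pdk3 and Pdk1 fill most of every bar, and the Pdk4 segment reaches 7.95% in DMDD liposome replicate 2 and at most 0.528% in model tumors.

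The phosphatase genes Pdp1 and Pdp2, whose products remove the inhibiting phosphates, were expressed at low levels with overlapping groups. Pdp1, the calcium-stimulated form, measured 2.68, 2.98 and 3.61 FPKM in DMDD liposome tumors, against 2.83, 3.55 and 3.85 FPKM in model tumors. Pdp2 measured 3.24, 2.33 and 2.64 FPKM in DMDD liposome tumors, against 2.25, 2.85 and 4.31 FPKM in model tumors. The fitted log2 fold change of Pdp2, -0.22 ± 0.26, became 0.08 without model replicate 3. The ratio of summed kinase to summed phosphatase FPKM was 7.22 ± 0.557 in DMDD liposome tumors and 7.63 ± 0.982 in model tumors (SD, n = 3 each), with overlapping ranges.

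The subunit genes were the steadiest members. Pdhb, the E1 beta subunit, varied least, with a coefficient of variation of 4.29% over the 6 libraries: 60.0, 55.9 and 55.0 FPKM in DMDD liposome tumors, against 53.2, 57.5 and 54.6 FPKM in model tumors. Dlat, the E2 subunit that carries the lipoyl groups and forms the core, measured 18.9, 20.0 and 18.4 FPKM in DMDD liposome tumors, against 19.6, 16.5 and 18.9 FPKM in model tumors. The fitted log2 fold changes of Pdhb and Dlat were 0.03 ± 0.09 and 0.04 ± 0.11, with 95% intervals of -0.18 to 0.24 and -0.22 to 0.29. Neither sign held when single libraries were left out.

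Pdha1, the E1 alpha subunit that the kinases phosphorylate, measured 40.1, 35.5 and 45.4 FPKM in DMDD liposome tumors, against 49.6, 48.7 and 39.9 FPKM in model tumors. DMDD liposome replicate 3 and model replicate 3 each sat nearer the opposite group, and the groups overlapped at a log2 fold change of -0.21 ± 0.12. Pdhx, which anchors the E3 enzyme to the core, was the least abundant subunit. It measured 4.83, 4.82 and 5.17 FPKM in DMDD liposome tumors, against 4.41, 4.32 and 3.99 FPKM in model tumors. Its groups did not overlap, at a log2 fold change of 0.20 ± 0.13 that stayed between 0.16 and 0.23 without any single library. Pdhx and Pdk4 were the 2 members whose CPM did not overlap between groups, both higher in DMDD liposome tumors. Of all genes tested, 12.9% did not overlap, 7.21% higher and 5.66% lower in DMDD liposome tumors.

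Dld, the E3 subunit shared with other 2-oxoacid dehydrogenases, and Pdpr, a regulator of the phosphatase, were read beside the members. Dld measured 104 ± 10.1 CPM in DMDD liposome tumors and 112 ± 4.09 CPM in model tumors (SD, n = 3 each), and Pdpr 20.2 ± 3.03 CPM in DMDD liposome tumors and 21.2 ± 1.65 CPM in model tumors. Both overlapped. Pdha2, the testis form of E1 alpha, had no row in the table.

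The genes around the complex were read from 10 pathway lists of 100 entries, 89 of them tested. edgeR called 0 of the 89, where it called 0% of all genes. At an unadjusted p under 0.05 it found 7 of the 89, a share close to the 7.65% of all genes. DESeq2 and the authors' deposited table each called 1, Car9, where they called 0.408% and 0.346% of all their genes. Of the 89, 41 lay above 0 and 48 below. Pyruvate supply and use (12 of 12 tested) had a median log2 fold change of 0.08, with 7 above 0. Ldha, which turns pyruvate into lactate, measured 1155 ± 175 CPM in DMDD liposome tumors and 1495 ± 173 CPM in model tumors (SD, n = 3 each). Pkm, the pyruvate kinase that makes pyruvate, stood at -0.28 ± 0.15. For both, every DMDD liposome library lay below every model library, as for 5.66% of all genes tested. Mpc1, a mitochondrial pyruvate carrier gene, went the other way without overlap, as for 7.21% of all genes tested. It measured 2.04 to 2.48 CPM in DMDD liposome tumors and 1.23 to 1.90 CPM in model tumors.

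The lists closest to the complex in chemistry were centred near 0. Lipoate synthesis and attachment, which supplies the cofactor of Dlat, had a median of -0.01 over 7 of 7 genes, with 3 above 0. In that list the iron-sulfur cluster factors Bola3 and Nfu1 stood at 0.36 ± 0.16 and -0.36 ± 0.22. The groups of Bola3 did not overlap, as for 7.21% of all genes tested in that direction, and those of Nfu1 overlapped. The sister 2-oxoacid dehydrogenases had a median of -0.02 over 7 of 8 genes, with 3 above 0. Dbt, the E2 subunit of the branched-chain complex, stood at 0.35 ± 0.18 and Ppm1k, the phosphatase of that complex, at 0.51 ± 0.27, both with overlapping groups. Bckdk, its kinase and the nearest relative of the Pdk genes in the list, stood at -0.04 ± 0.10. The citric acid cycle with citrate lyase had a median of -0.03 over 15 of 15 genes, with 5 above 0 and all between -0.26 and 0.07. Its members with the smallest p were Cs, the citrate synthase that takes up acetyl-CoA, at -0.26 ± 0.13 and Idh3b, an isocitrate dehydrogenase subunit, at -0.20 ± 0.11.

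**Figure D4:**
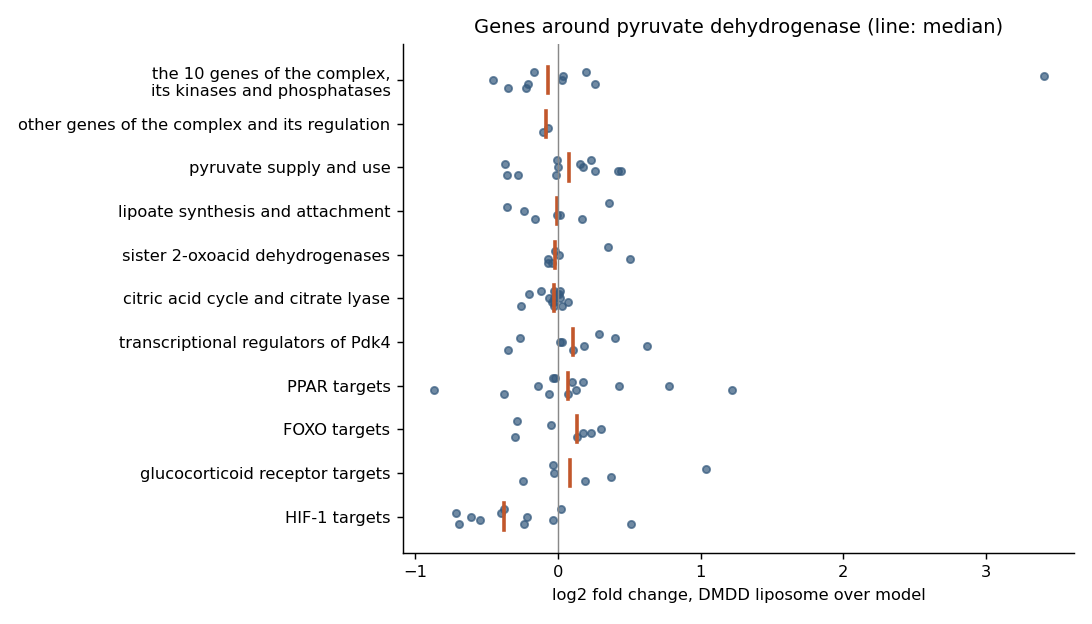
Fitted log2 fold change (DMDD liposome over model) of each tested gene, 1 point per gene, in the 10 members and the 10 pathway lists around them, with a line at each list's median. Pdk4 at 3.40 lies beyond every other gene drawn; list medians run from -0.38 for HIF-1 targets to 0.14 for FOXO targets.

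Factors known to raise Pdk4 and their other targets were given side by side. The transcriptional regulators had a median of 0.11 over 9 of 12 genes, with 7 above 0. Foxo3, a FOXO factor, measured 86.7 ± 0.929 CPM in DMDD liposome tumors and 71.0 ± 7.75 CPM in model tumors. Ppard, the PPAR delta gene, measured 51.8 ± 3.57 CPM in DMDD liposome tumors and 65.9 ± 9.80 CPM in model tumors (SD, n = 3 each). The groups of Foxo3 and Ppard did not overlap, in opposite directions, where 12.9% of all genes tested did not overlap. Ppara had at most 3 counts in any library.

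PPAR targets had a median of 0.07 over 13 of 15 genes, with 7 above 0 and 6 below. Cpt1a, which admits long-chain fatty acids to the mitochondrion and like Pdk4 is a PPAR target, measured 76.5, 106 and 99.6 CPM in DMDD liposome tumors, against 112, 186 and 217 CPM in model tumors. Its log2 fold change was -0.87 ± 0.24, opposite in sign to that of Pdk4. Plin2, a lipid droplet coat protein, stood at 0.43 ± 0.16. Plin2 and Ech1 (0.07 ± 0.09) were higher in DMDD liposome tumors without overlap, as for 7.21% of all genes tested. Cpt1a was lower without overlap, as for 5.66%. Angptl4, a secreted lipase inhibitor under PPAR control, stood at -0.38 ± 0.49. Fabp4 and Cd36, also on the list, stood at 1.22 ± 0.57 and 0.78 ± 0.40, the same sign as Pdk4. Both had overlapping groups and were highest in DMDD liposome replicate 2, as Pdk4 was. The part of PPAR control in the values of Pdk4 was not tested.

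FOXO targets had a median of 0.14 over 7 of 9 genes, with 4 above 0. Sesn1, a stress-induced inhibitor of mTORC1 signaling, stood at 0.30 ± 0.15 and Cited2, a transcriptional coregulator, at -0.29 ± 0.20, both with overlapping groups. Glucocorticoid receptor targets had a median of 0.08 over 6 of 7 genes, with 3 above 0. Klf9, a Krüppel-like factor, measured 28.9, 40.6 and 32.3 CPM in DMDD liposome tumors, against 29.1, 9.87 and 10.9 CPM in model tumors. Model replicate 1 thus lay just inside the DMDD liposome range. In FPKM the groups did not overlap, by a narrow gap between DMDD liposome replicate 1 (9.09) and model replicate 1 (8.93). The fitted log2 fold change of Klf9 was 1.03 ± 0.41. Tsc22d3, which encodes the anti-inflammatory protein GILZ, stood at 0.37 ± 0.20.

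HIF-1 targets, the group to which Pdk1 belongs, had a median of -0.38 over 11 of 12 entries, with 2 above 0. The entry without a row, Ero1a, is another symbol of Ero1l, which was tested. Car9, a carbonic anhydrase, measured 100.3, 115 and 128 CPM in DMDD liposome tumors, against 177, 163 and 215 CPM in model tumors. Its log2 fold change was -0.69 ± 0.14, with no overlap, as for 5.66% of all genes tested in that direction. Slc2a1, the glucose transporter GLUT1, stood at -0.55 ± 0.25 with overlapping groups. The fitted value of Pdk1, -0.35, lay near the list's median, with overlapping groups. A link between Pdk1 and this list was not tested.

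Markers of other cells are given beside Pdk4, and the groups overlapped in all of these lists but the fat cell and macrophage ones. edgeR called 0 of the marker genes tested. DESeq2 called 1, the epithelial claudin Cldn7, lower in DMDD liposome tumors, where it called 0.408% of all genes. Fat cell markers (9 of 9 in the table) summed to 45.1, 92.3 and 32.0 CPM in DMDD liposome replicates 1 to 3, against 24.6, 31.7 and 29.7 CPM in model replicates 1 to 3. DMDD liposome replicate 2, the highest library for Pdk4, was also the highest for these and for the endothelial markers below. Adipoq, the fat cell hormone adiponectin, had 45, 126 and 0 counts in DMDD liposome replicates 1 to 3 and 0, 8 and 6 in model replicates 1 to 3. DMDD liposome replicate 3, with 0 counts of Adipoq and of Plin1, the lipid droplet protein perilipin, had 5.32 CPM of Pdk4 and the highest skeletal muscle sum of the 6 libraries.

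Skeletal muscle markers (13 of 14 in the table) summed to 170, 35.4 and 324 CPM in DMDD liposome replicates 1 to 3, against 53.9, 51.9 and 65.1 CPM in model replicates 1 to 3. DMDD liposome replicate 2, the highest for Pdk4, had the lowest muscle sum. It had 0 counts of Myh4, a fast myosin, as model replicate 2 did. It had 4 counts of Ckm, the muscle creatine kinase, as model replicate 3 did. Tnni2, Tnnt3 and Myh1 measured 22.1, 7.86 and 1.13 CPM in DMDD liposome replicate 2, and 31.4, 16.3 and 14.1 CPM in model replicate 3. Of the 10 markers tested, 9 lay above 0 and 1, Myh1, below (-1.06 ± 0.85). Every DMDD liposome library thus lay above the model range for the fat cell sum, replicate 3 by a narrow margin. That margin rested on 1 marker, Lipe, at 30.8 CPM in DMDD liposome replicate 3 and 24.1 to 27.5 CPM in model tumors. Cfd, another of the fat cell markers, measured 0.204 CPM in that library, below the 0.394 to 1.35 CPM of model tumors. For the muscle sum, DMDD liposome replicates 1 and 3 lay above the model range. The part of fat and muscle in the values of Pdk4 was not tested.

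Macrophage markers (10 of 10) summed to 2932 to 3964 CPM in DMDD liposome tumors and 1527 to 2850 CPM in model tumors, without overlap. Of the 10 genes only 1, Lyz2, did not overlap by itself, where 12.9% of all genes tested did not. Lyz2 measured 1107 to 1734 CPM in DMDD liposome tumors and 332 to 1017 CPM in model tumors, a large part of these sums. The log2 fold change was above 0 for 9 of the 10 and below 0 for Mrc1. Endothelial markers (8 of 8) summed to 291, 382 and 266 CPM in DMDD liposome replicates 1 to 3. In model replicates 1 to 3 they summed to 342, 181 and 211 CPM. Like Pdk4 and the fat cell markers, this sum was highest in DMDD liposome replicate 2. The log2 fold change was above 0 for 7 of the 8 and below 0 for 1. Epithelial tumor cell markers (9 of 9) summed to 3367 to 4443 CPM in DMDD liposome tumors and 3823 to 6415 CPM in model tumors. Of the 9, 8 lay below 0 and 1 above, with a median log2 fold change of -0.63. Cldn7 and Esrp1 were lower without overlap, as for 5.66% of all genes tested. T cell markers (7 of 8) summed to 19.7 to 88.8 CPM in DMDD liposome tumors and 32.0 to 39.5 CPM in model tumors. Their part in the values of Pdk4, Pdk3 and Pdk1 was not tested. Epidermal keratinocyte markers (8 of 8) summed to 222 CPM in model replicate 2 and to 5.44 to 6.95 CPM in each other library. That replicate had the highest Pdk4 of the model group, and without it the log2 fold change of Pdk4 was 3.62.

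**Figure D5:**
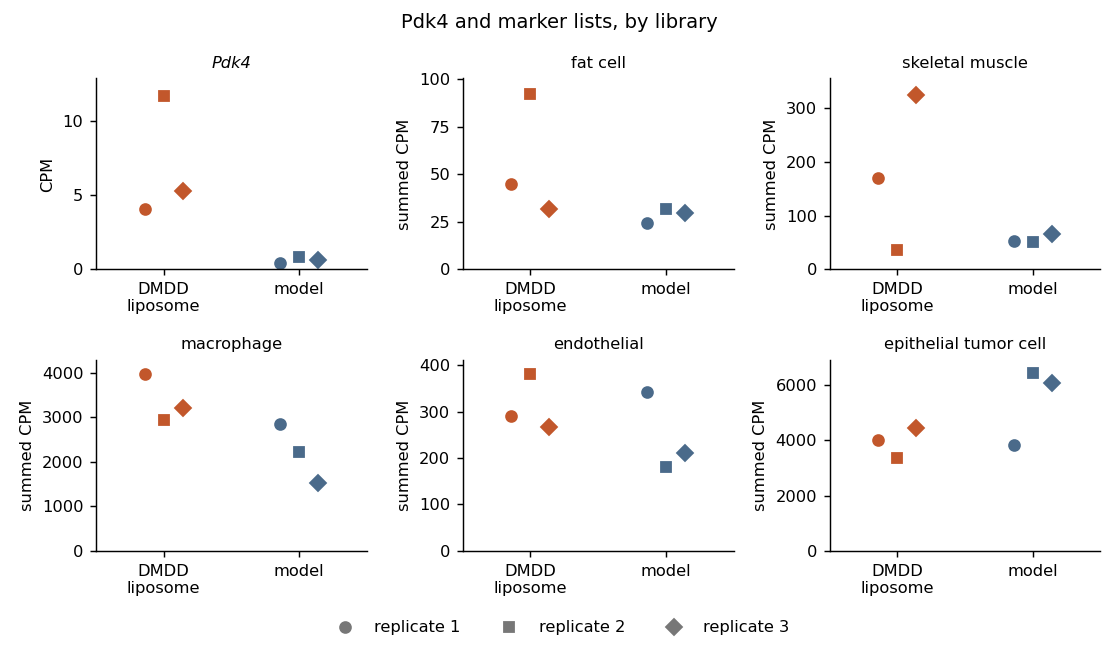
CPM of Pdk4 and summed CPM of 5 marker lists in each library, DMDD liposome left of model, with a symbol per replicate and axes from 0. Pdk4, the fat cell list and the endothelial list peak in DMDD liposome replicate 2, the muscle list in DMDD liposome replicate 3.

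The genes most like Pdk4 over the 6 libraries were found by the root-mean-square difference between profiles of log2 CPM, each centred on its mean, among 12546 genes with a mean of at least 1 CPM. The nearest were Sbspon (0.59), Prtn3 (0.74), Itih5 (0.76), Wnt2 (0.89) and Cxcl14 (0.90). Sbspon, a secreted protein with somatomedin B and thrombospondin domains, had 29, 38 and 17 counts in DMDD liposome tumors and 4, 5 and 4 in model tumors. Prtn3, the neutrophil granule protease proteinase 3, measured 2.54 ± 0.646 CPM in DMDD liposome tumors and 0.550 ± 0.325 CPM in model tumors. Cxcl14, a chemokine, was the abundant gene of the 5, at 162, 515 and 265 CPM in DMDD liposome tumors against 149, 68.5 and 55.1 CPM in model tumors. All 5 were highest in DMDD liposome replicate 2, as Pdk4 was. The likeness was picked from the same libraries and describes them only.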

How the data were processed

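The 6 libraries (3 DMDD liposome, 3 model) were built with an NEBNext Ultra kit from Trizol-extracted tumor RNA, as the labels' protocols state; groups came from the sample descriptions, which call the animals rats although the organism field, the strain and the symbols are those of mouse (16720 of 16763 symbols matched a mouse name table). The deposited read counts per gene are whole numbers. The authors also deposited a normalized signal (counts divided by 1 size factor per library) and FPKM values. The deposited log2 fold changes run model over DMDD liposome, opposite to those here, and come with deposited p-values; DESeq2 and build mm9 are named in the submitters' processing notes. The sources used here do not give the aligner, counter, annotation or strandedness, so overlapping genes may share reads.

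Counts were fitted in R 4.3.3 with edgeR 4.0.16 (filterByExpr, minimum count 10 and total 15, 12891 genes kept; TMM; quasi-likelihood test, two-sided; Benjamini-Hochberg, threshold 0.05) over all 6 libraries. Library totals were 13037500 to 15616840 counts. SE came from the F statistic; log2 CPM used a prior count of 2. Levels of different genes were compared as deposited FPKM. The members, gene lists and tests were chosen with earlier results of these data known. Of each pathway list, the tested genes with the smallest unadjusted p were named (2, or 1 for short lists). Pdpr, Bckdk, Angptl4, Ppara, Fabp4, Cd36, Ech1 and Mpc1 were added after their values were seen. DESeq2 1.42.0, limma 3.58.1 (voom with quality weights), other size factors, no filter, a replicate block and leaving out each library were alternatives. In simulated counts for this comparison (12891 genes), edgeR recovered 56% of genes changed 2-fold and 86% of those changed 4-fold, with 6 false calls. DESeq2 recovered 69% and 87%, with 41 false calls. These counts were drawn independently for each gene and library, without variation shared by the genes of a library. The rates may therefore not hold for the real libraries, where edgeR did not call Pdk4 at 10.6-fold.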

Additional observations from a re-analysis of the deposited data

How the results depend on the processing

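Over 17 alternatives, the 10 genes kept their direction in all but 9 of 170 values, all near 0. With edgeR, leaving out each library gave Dlat -0.047 to 0.080 (log2 fold change; -0.019 without DMDD liposome replicate 2), Pdhb -0.0034 to 0.051 and Pdp2 -0.42 to 0.079. With DESeq2, Dlat was -0.020 without DMDD liposome replicate 2 and -0.051 without model replicate 2, Pdhb -0.0056 without DMDD liposome replicate 1 and -0.0099 without model replicate 1, and Pdp2 0.078 without model replicate 3. The cause was not tested.

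DESeq2's Wald test called 59 genes, among them 1 member, Pdk4. Leaving out each library in DESeq2, chosen after seeing the data, gave 20, 128 and 87 genes without DMDD liposome replicates 1 to 3 and 867, 30 and 18 without model replicates 1 to 3. Those fits called 1 member, Pdk4, except that Pdk3 joined it without model replicate 1, making 2. Pdk4 was called in all 7 DESeq2 fits (adjusted p 5.67e-06 to 0.000919) and in 0 of the 10 edgeR and limma alternatives (adjusted p 0.0659 to 0.999). With edgeR, leaving out each library gave 0 to 112 genes, the 112 without model replicate 1, and 0 members. The replicate block called 0 genes and 0 members, with a log2 fold change of 3.34 ± 0.36 for Pdk4 (adjusted p = 0.232). Deviations of same-numbered libraries correlated at 0.0876, 0.114 and 0.121, so the numbers were not taken to pair samples. The mean share of Pdk4 in the kinase FPKM ran from 3.26% to 5.73% in DMDD liposome tumors and from 0.309% to 0.425% in model tumors when single libraries were left out, and was 5.32% and 0.420% in CPM. Depth limits Pdk4 in model tumors most, at 6 to 13 counts.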
